A study of Mus musculus with 6 samples.

Results

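The comparison of *Tnfr2*-/- with WT myeloid-derived suppressor cells (MDSCs) rests on 4 of the 6 RNA-seq samples of the series, 2 of each genotype, and covers all 8191 genes in the deposited table. The members were taken by column, with no choice by level or direction. The cells came from spleens and were neither cultured nor treated. The labels describe cell sorting, whereas the study's methods describe an MDSC isolation kit with purity checked by flow cytometry as CD45+ Gr1+ CD11b+, and which of these gave the RNA samples is not settled by the sources used here. All mice were aged, with 18 to 24 months given as the age of old mice, and on a BALB/c background. WT mice carried no targeted allele and were purchased. *Tnfr2*-/- mice lack functional TNFR2 in every cell of the body, since the deletion is germline, and were bred by the authors. MDSCs of 5 mice were pooled in each of 2 experiments. The 2 samples of *Tnfr1*-/- MDSCs, from aged knockouts of the other TNF receptor on the same background, are given beside the comparison. Each value is in FPKM, reads scaled to transcript length and to the reads of the library. The table lists only genes that passed the authors' test over the 3 genotypes at p under 0.05, so every gene compared here had already been picked for a difference, and genes outside the table were not analysed here.

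MDSCs are immature cells of the granulocyte and monocyte lineages that accumulate in ageing, infection and cancer and inhibit T cells. In the mouse they are gated by CD11b and Gr-1, an antibody epitope shared by Ly6G of granulocytes and Ly6C of monocytes. TNFR2, encoded by *Tnfrsf1b*, binds TNF and lacks the death domain that TNFR1 carries. It recruits TRAF adaptors to the membrane and through them activates NF-κB and the kinase JNK. In MDSCs that infiltrate tumours it is known for inhibiting apoptosis and promoting expansion. In aged MDSCs the study found no difference in apoptosis between WT, *Tnfr1*-/- and *Tnfr2*-/- mice.

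The 2 genotypes differed over the whole table, so each result is given on 2 scales. The listed FPKM values summed to 344714 and 346870 in the WT samples and to 148956 and 155248 in the *Tnfr2*-/- samples, against 134343 and 133604 in the *Tnfr1*-/- samples. On the deposited scale the median log2 change of all genes, *Tnfr2*-/- minus WT on log2(FPKM + 1), was -0.74. On the median-ratio scale, where each sample was divided by a size factor that centres the ratios of 7504 genes above 0 in every sample, it was -0.032. Changes in this text are log2 changes on those 2 scales, in this order, which understate the change of genes near 1 FPKM. A gene was called when limma's test gave a Benjamini-Hochberg adjusted p under 0.05 and a fold change over 1.5, and "rose" and "fell" are used only of genes called in that direction on both scales. With 2 samples a group the lowest p of an exact two-sided permutation test is 0.333, so none was run for single genes. P-values measure only the spread between these samples.

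The WT libraries stood apart from both knockouts in ways that the genotype label alone does not describe. The labelled cell type was checked against markers of granulocytes and monocytes. *Csf3r*, the receptor for granulocyte colony-stimulating factor, was at 9.99 and 8.07 FPKM in WT and at 424 and 286 FPKM in *Tnfr2*-/- MDSCs, and *Ly6c1*, a gene of the Ly6C antigen, was at 0.159 and 0.0638 against 121 and 178 FPKM. Macrophage genes were high in WT instead, with the 27 listed macrophage markers summing to 7268 and 7854 FPKM against 1039 and 1108 FPKM in *Tnfr2*-/- MDSCs. After scaling these sums were 4357 and 4733 in WT against 1314 and 1258 in *Tnfr2*-/- MDSCs. Granulocyte genes were not all low in WT. The 7 listed genes of secondary and tertiary granules summed to 27691 and 29693 FPKM in WT and 9264 and 6943 FPKM in *Tnfr2*-/- MDSCs. Of 20 listed mature neutrophil genes 14 rose and 2 fell, and of 12 listed monocyte genes 11 rose and none fell. The WT libraries thus go against their MDSC label in *Csf3r*, *Ly6c1* and the macrophage markers. They do not in every gene of the granulocyte lists, of which *Lyz2* is shared with macrophages. No comparison with WT can be made without these libraries. Other markers of the gate, *Itgam*, *Ly6g*, *S100a8* and *S100a9*, were not analysed here. The Y-linked genes *Ddx3y*, *Eif2s3y*, *Kdm5d* and *Uty* were at 0.491 to 3.79 FPKM in the WT samples and listed at 0 in all 4 knockout samples. The study's methods state that the mice were matched for sex. Values carry up to 10 significant digits in the WT columns and up to 7 in the knockout columns. These Y-linked values, mouse source, cell content and the way the values were made therefore follow the genotype and cannot be told apart from it. In bulk samples, moreover, fewer cells of a type and less RNA per cell cannot be told apart.

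*Tnfrsf1b* (chromosome 4, 145213463 to 145246870, minus strand, GRCm38), the targeted gene, was lowest in the *Tnfr2*-/- samples. It was expressed at 112 and 115 FPKM in WT, at 47.8 and 69.6 FPKM in *Tnfr1*-/- and at 11.3 and 14.3 FPKM in *Tnfr2*-/- MDSCs. The 3 groups did not overlap as deposited, but neither did WT and *Tnfr2*-/- samples for all but 138 of the 8191 listed genes. After scaling the means were 68.1 in WT, 78.2 in *Tnfr1*-/- and 15.3 in *Tnfr2*-/- MDSCs. It fell against WT by 3.06 on the deposited scale (SE 0.21, limma adjusted p = 1.62e-04) and by 2.09 on the median-ratio scale (SE 0.20, adjusted p = 6.08e-04). No 50-base stretch of its transcript occurs in another annotated gene. A gene-level FPKM does not show which exons the remaining reads came from.

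On the deposited scale 5794 of the 8191 genes were called (70.7%), 1115 higher and 4679 lower in *Tnfr2*-/- MDSCs. On the median-ratio scale 3504 were called (42.8%), 1787 higher and 1717 lower. The 2 scales never gave opposite calls. All 1115 genes higher on the deposited scale were also higher after scaling, which is 13.6% of the table, and all 1717 genes lower after scaling were also lower as deposited, which is 21.0%. This agreement follows from the scaling and is no separate support for a call. The size factors were 1.67 and 1.66 in WT and 0.791 and 0.881 in *Tnfr2*-/- samples, so scaling moved nearly every change upward. In effect, the deposited scale set which genes rose and the median-ratio scale which genes fell. Another 2962 genes were called lower only as deposited and 672 higher only after scaling. The counts of genes that rose or fell in each list below are to be read beside the 13.6% and 21.0%. The replicates agreed most closely in WT. The median SD between replicates on log2 of scaled FPKM + 1 was 0.0386 in WT, 0.0731 in *Tnfr1*-/- and 0.116 in *Tnfr2*-/- MDSCs.

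**Figure D1:**
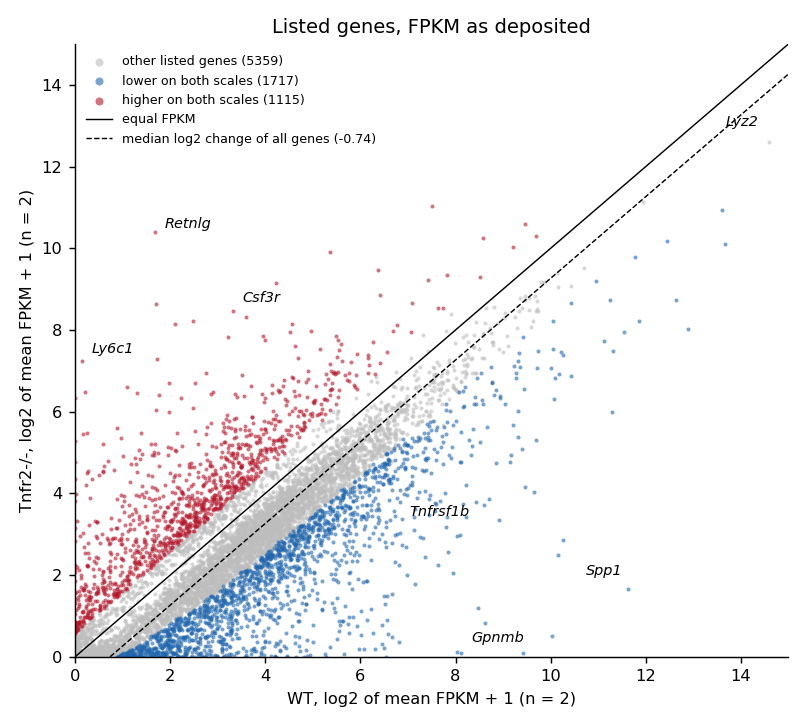
Mean FPKM + 1 of each listed gene in WT (horizontal, log2) against *Tnfr2*-/- MDSCs (vertical, log2), n = 2 each, as deposited, with the 1115 genes higher and the 1717 genes lower on both scales in colour. The bulk of the genes lies along the dashed line at the median change of -0.74, below the solid line of equal values.

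To show the promoters of genes among the 12 largest rises and 12 largest falls, the 250 bases upstream of the start are given for 2 genes that rose and 2 that fell, from RefSeq on GRCm38.p6, 5′ to 3′, all on the plus strand. Capitals mark matches on either strand to 4 short motifs, TGANTCA (AP-1), TTNCNNAA (C/EBP), GAGGAAG (PU.1) and CACGTG (E-box), of which the ones found here are C/EBP in *Retnlg* and *Gpnmb* and PU.1 in *Csf3r* and *Spp1*. For *Spp1*, which has more than 1 annotated start, the first in the table is shown. For *Csf3r* the RefSeq start lies downstream of the GENCODE start at 126024550. The last part of its stretch, with the PU.1 match at -86, is therefore inside the GENCODE gene.
Retnlg, chr16:48872358-48872607: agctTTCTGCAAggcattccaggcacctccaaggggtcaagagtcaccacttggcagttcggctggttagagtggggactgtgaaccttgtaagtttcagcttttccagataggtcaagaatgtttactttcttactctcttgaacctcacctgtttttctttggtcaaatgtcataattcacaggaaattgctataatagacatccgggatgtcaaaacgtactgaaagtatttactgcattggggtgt
Csf3r, chr4:126024409-126024658: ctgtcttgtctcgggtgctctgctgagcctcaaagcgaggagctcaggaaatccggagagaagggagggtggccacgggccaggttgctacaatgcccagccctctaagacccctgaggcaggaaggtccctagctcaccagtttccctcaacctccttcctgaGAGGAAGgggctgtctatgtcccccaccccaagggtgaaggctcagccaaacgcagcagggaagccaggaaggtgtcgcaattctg
Spp1, chr5:104434861-104435110: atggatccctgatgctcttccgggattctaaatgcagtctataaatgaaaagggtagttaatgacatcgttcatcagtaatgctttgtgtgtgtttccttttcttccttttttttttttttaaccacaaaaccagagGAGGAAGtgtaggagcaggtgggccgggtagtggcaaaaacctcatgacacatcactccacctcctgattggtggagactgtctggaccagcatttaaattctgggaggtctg
Gpnmb, chr6:49036268-49036517: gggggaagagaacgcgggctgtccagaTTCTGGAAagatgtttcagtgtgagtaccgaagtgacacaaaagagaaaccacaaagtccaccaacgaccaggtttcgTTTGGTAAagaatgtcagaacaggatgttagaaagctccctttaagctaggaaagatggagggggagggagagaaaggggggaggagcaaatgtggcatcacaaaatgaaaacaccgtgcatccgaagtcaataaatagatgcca
Of 6593 listed genes with such a sequence, 28.4% held the C/EBP motif, against 29.5% of the 881 that rose and 30.4% of the 1392 that fell. The PU.1 motif was in 10.4%, 11.4% and 11.6% of them, the AP-1 motif in 4.44%, 5.79% and 5.17%, and the E-box in 8.66%, 7.72% and 9.70%. A match to these letters is a description and not a binding site.

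The 12 largest rises included *Retnlg*, *Slfn4* and *Csf3r* of the mature neutrophil list, *Mmp9*, *Lrg1* and *Hp* of the granule list and *Ly6c1* of the monocyte list. *Retnlg* (chromosome 16, 48872621 to 48874496, plus strand), a resistin-like protein secreted by neutrophils, had the largest rise of the 12 named by size, from 2.30 and 2.13 FPKM in WT to 1649 and 1049 FPKM in *Tnfr2*-/- MDSCs. This was a change of 8.68 and 9.40 (SE 0.24 and 0.28, limma adjusted p = 1.58e-05 and 2.88e-05), and the *Tnfr1*-/- samples were higher still, at 2364 and 1961 FPKM. *Slfn4*, a Schlafen family gene of myeloid cells, followed with 2.26 and 2.24 FPKM in WT and 458 and 336 FPKM in *Tnfr2*-/- MDSCs. *Mmp9*, the gelatinase of tertiary granules, rose from 3.13 and 3.46 to 376 and 187 FPKM, and *Lrg1*, a glycoprotein stored in neutrophil granules, from 4.46 and 4.63 to 414 and 183 FPKM. In each of these genes both WT samples lay below 5 FPKM and both *Tnfr2*-/- samples above 100 FPKM. *Csf3r* (chromosome 4, 126024550 to 126044440, plus strand), the receptor that drives granulocyte production, rose by 5.13 and 6.03 (SE 0.29 and 0.33, limma adjusted p = 9.99e-05 and 1.22e-04).

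Among the other large rises, *Hp*, the haemoglobin-binding protein haptoglobin, went from 18.1 and 17.4 to 715 and 424 FPKM. *Steap4*, a metalloreductase, went from 0.240 and 0.0859 to 117 and 59.1 FPKM. *Ctse*, an intracellular aspartic protease, went from 1.22 and 1.07 to 106 and 87.8 FPKM, and *Pi16*, a peptidase inhibitor, from 1.55 and 1.37 to 106 and 68.1 FPKM. *Evi2b*, a membrane protein gene in an intron of *Nf1*, was listed at 0 in both WT samples and at 97.1 and 62.7 FPKM in *Tnfr2*-/- MDSCs. Its value is uncertain, since 98.3% of its 50-base stretches also occur in another annotated gene. Of the 20 listed genes of the mature neutrophil list, out of 43 names, 14 rose, 2 fell and 4 did neither, with medians of 2.999 and 3.80 against -0.74 and -0.032 for all genes. The risers include *Trem1*, an amplifier of inflammatory signals, at 2.20 and 2.15 FPKM in WT and 32.8 and 30.2 FPKM in *Tnfr2*-/- MDSCs, and *Hdc*, which makes histamine, at 2.65 and 2.18 FPKM in WT and 116 and 50.6 FPKM in *Tnfr2*-/- MDSCs. The 2 that fell were *Lilrb4a*, an inhibitory receptor, from 901 and 799 to 196 and 158 FPKM, and *Stfa1*, a cysteine protease inhibitor, from 15.1 and 12.5 FPKM to 0 in both samples, and 4 fell without the first *Tnfr2*-/- sample.

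Granule proteins did not move as 1 block. Of 23 names of secondary and tertiary granules 7 were listed, of which 4 rose and 2 fell. *Mmp9*, *Lrg1* and *Hp* rose as above and *Cnn2*, an actin-binding calponin, rose by 2.05 and 3.03. *Chil3*, a chitinase-like lectin, fell from 2877 and 3066 to 375 and 116 FPKM, and *Cyba*, a subunit of the phagocyte oxidase, from 1095 and 1015 to 325 and 270.2 FPKM, but neither was called without either WT sample. *Lyz2*, the lysozyme of both neutrophils and macrophages and the most abundant listed gene in either genotype, was at 23647 and 25539.7 FPKM in WT and 6823 and 5596 FPKM in *Tnfr2*-/- MDSCs, and was called on neither scale (changes of -1.99 and -0.9963, limma adjusted p = 0.052 and 0.349). None of the 7 names of primary granules was listed.

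**Figure D2:**
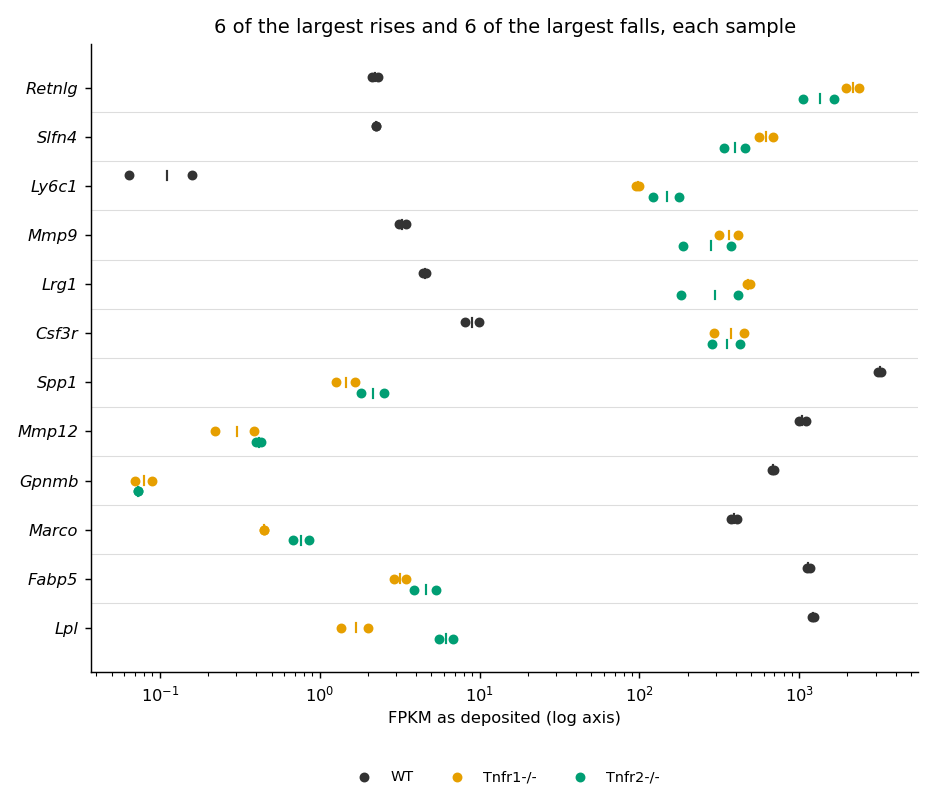
FPKM as deposited (horizontal, log axis) of 6 of the 12 largest rises and 6 of the 12 largest falls in each WT, *Tnfr1*-/- and *Tnfr2*-/- sample (points), with a tick at each group's mean. *Retnlg* was at 2.30 and 2.13 FPKM in WT and above 1000 FPKM in the 4 knockout samples, and *Spp1* at 3119 and 3238 FPKM in WT and below 3 FPKM in the 4 knockout samples.

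Monocyte genes rose with few exceptions. Of the 12 listed of 22 names, 11 rose and none fell, with medians of 3.34 and 4.26. *Ly6c1* (chromosome 15, 75044018 to 75048830, minus strand) rose by 7.06 and 7.38 (SE 0.19 and 0.14, limma adjusted p = 1.49e-05 and 1.23e-05). It shares 36.2% of its 50-base stretches with another annotated gene, and reads of the Ly6 family may have been split between members. *Ccr2*, the chemokine receptor by which monocytes leave the bone marrow, rose from 14.995 and 14.9 to 199 and 229 FPKM. *Cx3cr1*, the fractalkine receptor of patrolling monocytes, rose from 0.603 and 0.388 to 25.7 and 45.9 FPKM, and *F13a1*, a coagulation factor subunit made by monocytes, from 4.61 and 4.89 to 104 and 101 FPKM. The exception was *Csf1r*, the receptor for macrophage colony-stimulating factor. It was at 225 and 237 FPKM in WT and 137 and 171 FPKM in *Tnfr2*-/- MDSCs, with changes of -0.59 and 0.40 that differ in sign between the scales.

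Lymphocyte genes were among the risers as well. All 10 listed B cell genes, of 19 names, rose, with medians of 2.11 and 2.58. Their summed level was 86.9 to 89.5 FPKM in WT and 302.2 to 453 FPKM in *Tnfr2*-/- MDSCs, and after scaling 52.4 to 53.7 and 382 to 514. *Cd79a*, a signalling chain of the B cell receptor, rose from 23.6 and 22.5 to 83.6 and 142 FPKM, and *Pax5*, the transcription factor that keeps B cell identity, from 0.990 and 0.775 to 7.46 and 10.973 FPKM. Of the 2 listed plasma cell genes, of 11 names, *Jchain*, which joins antibody multimers, rose from 165 and 198 to 2186 and 2035 FPKM. The other was called lower as deposited and was not called after scaling, with a change of -0.42 on that scale. Of the 9 listed T cell genes, of 23 names, 4 rose and *Cd4* fell, while *Cd3g*, a chain of the T cell receptor complex, was at 5.27 and 7.38 FPKM in WT and 5.96 and 8.80 FPKM in *Tnfr2*-/- MDSCs and was called only after scaling. No NK cell gene of 14 names was listed. The part of other cells in these values was not tested.

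The 12 largest falls included genes of lipid-handling macrophages. *Spp1* (chromosome 5, 104435118 to 104441050, plus strand), the secreted matrix protein osteopontin, was at 3119 and 3238 FPKM in WT and at 2.52 and 1.81 FPKM in *Tnfr2*-/- MDSCs, a change of -9.98 and -9.06 (SE 0.14 and 0.17, limma adjusted p = 5.47e-06 and 1.21e-05). *Mmp12*, the macrophage elastase, fell from 1095 and 994 to 0.430 and 0.401 FPKM. *Gpnmb* (chromosome 6, 49036546 to 49070929, plus strand), a glycoprotein of macrophage lysosomes, fell from 699 and 675 to 0.0734 and 0.0732 FPKM, a change of -9.32 and -8.57 (SE 0.074 and 0.079, limma adjusted p = 5.35e-06 and 7.91e-06). All 3 genes were below 3 FPKM in each of the 4 knockout samples. *Lpl*, which releases fatty acids from lipoproteins, fell from 1201 and 1233 to 6.81 and 5.59 FPKM. The fatty acid carriers *Fabp5* and *Fabp4* fell from 1167 and 1114 to 3.88 and 5.34 FPKM and from 369 and 339.6 to 0.821 and 1.73 FPKM. *Cd36*, a scavenger receptor for oxidised lipids, fell from 162 and 162 to 2.54 and 6.34 FPKM.

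Of the 28 listed genes of the lipid-laden macrophage list, out of 30 names, 25 fell and 1 rose, with medians of -3.45 and -2.49. The fall covered uptake, storage and efflux of lipid. *Trem2*, a lipid-sensing receptor, fell with changes of -3.70 and -2.75, *Plin2*, which coats lipid droplets, with -3.40 and -2.42, and *Abcg1*, a cholesterol exporter, with -3.86 and -2.89. Their regulators *Pparg* and *Nr1h3* (LXRα) fell from 40.2 and 42.1 to 1.56 and 1.41 FPKM and from 56.9 and 60.7 to 2.36 and 7.46 FPKM. *Dcstamp*, needed for the fusion of macrophages into giant cells, was at 21.8 and 20.4 FPKM in WT and listed at 0 in all 4 knockout samples. The gene that rose was *Tyrobp*, the adaptor DAP12 that TREM2 signals through, from 828 and 823 to 1343 and 1178 FPKM, which was not called without either WT sample or without the first *Tnfr2*-/- sample.

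General macrophage markers fell to a lesser extent. Of 27 listed of 29 names, 20 fell and 1 rose, with medians of -2.87 and -1.88. *Marco*, a scavenger receptor for bacteria, fell from 409 and 372 to 0.854 and 0.681 FPKM. *C1qa*, a chain of complement C1q, fell from 659 and 686 to 36.2 and 29.5 FPKM, and *Adgre1*, which encodes F4/80, from 95.9 and 109 to 20.6 and 20.4 FPKM. The riser was *Cd163*, the haemoglobin scavenger receptor, which stayed low at 0.347 and 0.359 FPKM in WT and 2.18 and 1.67 FPKM in *Tnfr2*-/- MDSCs. *Spic*, a transcription factor of tissue macrophages, had changes of -0.71 and 0.25, and its sign depended on the scale.

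Lysosomal genes followed the macrophage genes. Of 63 listed, 40 fell and 3 rose, with medians of -1.87 and -0.89. *Ctsd*, a cathepsin and 1 of the 10 most abundant genes in WT, fell from 7249.5 and 7829 to 316 and 206 FPKM. *Ctsk*, the collagen-cleaving cathepsin of osteoclasts, fell from 39.7 and 39.983 to 0.152 and 0.210 FPKM, and *Atp6v0d2*, a subunit of the proton pump, from 267 and 252 to 0.122 and 0.0557 FPKM. The 3 that rose were *Ctse*, *Sgsh* and *Atp6v0e2*.

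Cells that present antigen and other granulocytes had lower marker levels in *Tnfr2*-/- MDSCs too. Of 8 listed MHC class II genes 5 fell (3 without either WT sample) and *H2-Ob* rose (not without the second WT sample). *H2-Aa*, a chain of I-A, fell from 1180.0 and 1204 to 125 and 224 FPKM. Of 13 listed dendritic cell genes 6 fell (3 without either WT sample) and *Flt3* rose, and *Itgax*, which encodes CD11c, fell from 219 and 216 to 13.3 and 17.1 FPKM. Of 13 listed eosinophil, basophil and mast cell genes 8 fell and *Ccr3* rose, with 2 higher without the second *Tnfr2*-/- sample. *Prg2*, the major basic protein of eosinophils, fell from 32.2 and 39.2 to 1.92 and 0.518 FPKM, whereas *Ccr3*, the eotaxin receptor, rose from 0.139 and 0.0928 to 9.86 and 4.60 FPKM. The 3 listed platelet genes, *Pf4*, *Clec1b* and *Vwf*, all fell, summing to 221.5 to 228.9 FPKM in WT and 5.82 to 6.01 FPKM in *Tnfr2*-/- MDSCs. After scaling their sums were 133 to 138 in WT and 6.83 to 7.37 in *Tnfr2*-/- MDSCs. Of 4 listed erythroid genes, *Epor* fell and *Slc4a1* was listed at 0 in WT and at 0.815 and 0.409 FPKM in *Tnfr2*-/- MDSCs, a call lost without either WT sample or the first *Tnfr2*-/- sample. Of 8 listed stem and progenitor genes 5 fell (3 without the first WT sample) and 1, *Flt3*, rose.

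Genes of TNF signalling are the ones closest to the deleted receptor. Of 39 names 23 were listed, of which 6 rose and 1, *Tnfrsf1b* itself, fell, with medians of -0.58 and 0.36. The shares were 26.1% and 4.35%, against 13.6% and 21.0% of all listed genes. The number that fell depended on the second *Tnfr2*-/- sample. Among the ligands, *Ltb*, lymphotoxin β, rose from 21.6 and 26.1 to 183 and 203 FPKM, and was at 192 and 229 FPKM in *Tnfr1*-/- MDSCs. *Tnf* was at 27.9 and 24.2 FPKM in WT and at 15.7 and 15.6 FPKM in *Tnfr2*-/- MDSCs, called lower as deposited (-0.70) and not after scaling (0.25). Of the adaptors, *Traf3*, which holds back non-canonical NF-κB, rose from 6.70 and 6.24 to 11.9 and 10.7 FPKM. *Traf1*, which TNFR2 recruits, was at 8.41 and 9.01 FPKM in WT and 1.98 and 3.59 FPKM in *Tnfr2*-/- MDSCs, with changes of -1.39 and -0.56, and was called only as deposited. The kinase *Ripk1*, the ubiquitin ligase *Birc3* (cIAP2) and the TAK1 adaptor *Tab2* rose by 0.79 and 1.66, by 1.05 and 1.97, and by 1.68 and 2.61. *Nfkbia*, the NF-κB inhibitor that NF-κB itself induces, rose from 68.9 and 71.1 to 100.2 and 146 FPKM, and *Nfkb1*, an NF-κB subunit gene, was at 36.8 and 38.4 FPKM in WT and 33.3 and 36.3 FPKM in *Tnfr2*-/- MDSCs and called only after scaling. Between the knockouts, 2 of the 23 listed genes of this pathway were called lower in *Tnfr2*-/- MDSCs and none higher. *Tnfrsf1a* and *Traf2* were not analysed here.

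In the JNK cascade 23 of 41 names were listed, of which 7 rose and 3 fell, with medians of -0.21 and 0.54. The 7 that rose were the kinases *Map3k1*, *Map3k3*, *Map3k5*, *Map3k9* and *Map4k2*, with *Dusp10* and *Atf2*. *Map3k3* rose from 7.89 and 7.57 to 53.3 and 42.7 FPKM, *Map4k2* from 18.8 and 16.2 to 56.5 and 43.9 FPKM, and *Map3k9* from 0.367 and 0.490 to 7.77 and 4.02 FPKM. *Dusp10*, a phosphatase that switches JNK off, rose by 1.0035 and 1.40, and *Atf2*, a transcription factor that JNK phosphorylates, by 0.9996 and 1.78. The genes that fell were the kinases *Map4k3* and *Ptk2* and the phosphatase *Dusp19*. Of the JNK genes themselves, *Mapk8* was at 2.73 and 2.76 FPKM in WT and 3.30 and 3.60 FPKM in *Tnfr2*-/- MDSCs and *Mapk9* at 14.5 and 15.2 FPKM in WT and 6.21 and 7.54 FPKM in *Tnfr2*-/- MDSCs, *Mapk8* called higher only after scaling and *Mapk9* lower only as deposited. FPKM measures transcript levels and not the activity of these kinases. None of the 23 listed genes of the cascade was called between the knockouts, and *Map3k3* was at 44.1 and 52.6 FPKM in *Tnfr1*-/- MDSCs. *Jun* and *Fos* were not analysed here.

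**Figure D3:**
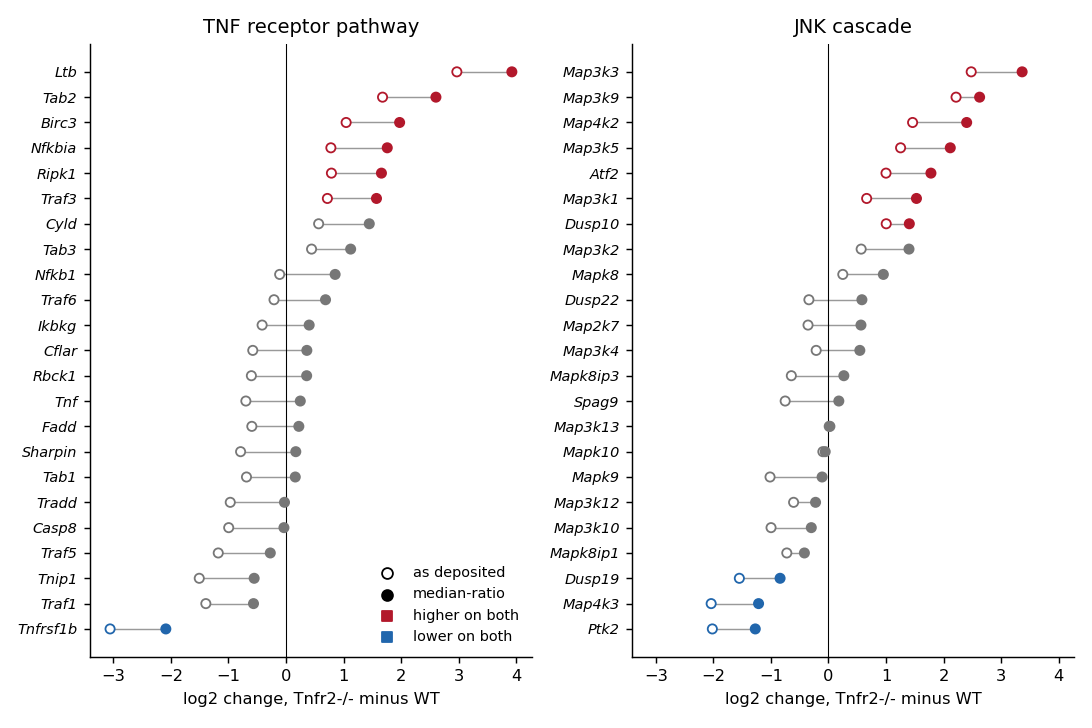
Log2 change, *Tnfr2*-/- minus WT, of each listed gene of the TNF receptor pathway (left, 23 genes) and the JNK cascade (right, 23 genes), as deposited (open) and on the median-ratio scale (filled), with genes called on both scales in colour. *Ltb* and *Map3k3* rose furthest and *Tnfrsf1b* fell furthest, and 16 genes on the left and 13 on the right were not called on both scales.

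Of 20 listed polarity genes, out of 46 names, 5 rose and 3 fell (25% and 15%, against 13.6% and 21.0% of all listed genes), with medians of -0.32 and 0.28. *Cdc42*, the small GTPase at the centre of polarity, rose by 2.38 and 3.35 (limma adjusted p = 1.78e-05 and 2.56e-05), and *Dlg1*, a scaffold of the Scribble module, from 2.87 and 2.59 to 5.79 and 5.38 FPKM. *Tiam1*, which activates RAC, rose from 3.26 and 2.95 to 8.51 and 7.39 FPKM. *Fzd7*, a Wnt receptor, fell from 16.1 and 16.3 to 2.62 and 2.41 FPKM. *Llgl1*, the partner of Scribble and Dlg, was at 7.56 and 7.62 FPKM in WT and 7.04 and 7.33 FPKM in *Tnfr2*-/- MDSCs, with changes of -0.071 and 0.79, and was called only after scaling. *Scrib* had changes of -0.56 and 0.33, which differ in sign, and was called on neither scale. None of the 20 listed polarity genes was called between the knockouts, and *Cdc42* was at 184 and 189 FPKM in *Tnfr1*-/- MDSCs.

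Cell cycle genes were lower mainly on the deposited scale. Of 39 listed, 37 were called lower as deposited but 12 on both scales (6 and 5 without the first and the second WT sample), none rose, and the medians were -1.30 and -0.38. *Birc5*, the mitotic protein survivin, fell from 39.024 and 43.6 to 5.61 and 3.58 FPKM, and *Ccnd1*, the G1 cyclin D1, from 16.9 and 16.8 to 1.66 and 2.20 FPKM. *Rrm2*, which supplies nucleotides for replication, was at 49.6 and 49.9 FPKM in WT and 28.5 and 19.7 FPKM in *Tnfr2*-/- MDSCs, a change of -1.04 and -0.073. The inhibitors of cyclin-dependent kinases moved apart. *Cdkn1a* (p21) fell from 126 and 120.5 to 8.9975 and 23.7 FPKM and *Cdkn1c* (p57) from 5.91 and 5.87 to 0.237 and 0.336 FPKM. *Cdkn1b* (p27) rose from 19.1 and 17.8 to 98.9 and 76.7 FPKM and *Cdkn2d* (p19) from 10.2 and 11.3 to 94.8 and 70.7 FPKM. In all, 3 of 11 listed inhibitors and regulators rose and 3 fell (27.3% each, against 13.6% and 21.0% of all listed genes). *Cdkn2a* was not analysed here.

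Secreted inflammatory genes fell and none rose. Of 25 listed of 41 names 16 fell, with medians of -2.07 and -1.08. Besides *Spp1* and *Mmp12*, *Mmp13*, a collagenase, fell from 90.1 and 88.1 to 0.107 and 0.199 FPKM, and *Il1a* from 45.2 and 43.5 to 0.168 and 0.541 FPKM. Of 27 listed chemokines and receptors, 15 fell and 7 rose, and all 7 that rose were receptors. The ligands *Ccl22* and *Cxcl16* fell from 102 and 86.4 to 0.436 and 0.509 FPKM and from 140.3 and 140.0 to 1.02 and 3.88 FPKM, and *Ccl17* was at 95.6 and 87.5 FPKM in WT and listed at 0 in all 4 knockout samples. *Ccl2*, the ligand of CCR2, was at 82.6 and 74.6 FPKM in WT and uneven in *Tnfr2*-/- MDSCs, at 1.51 and 14.6 FPKM. *Cxcr4*, which holds cells in the bone marrow, rose from 16.7 and 16.5 to 125 and 74.8 FPKM.

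Of the genes by which MDSCs inhibit T cells, 13 of 35 names were listed, of which 5 fell and 2 rose, with medians of -0.996 and -0.038. The shares were 38.5% and 15.4%, against 21.0% and 13.6% of all listed genes. Fewer fell without either WT sample. *Pdcd1lg2*, the inhibitory ligand PD-L2, fell from 10.4 and 9.07 to 0.679 and 1.67 FPKM, and *Ptgs1*, a cyclooxygenase, from 34.5 and 35.2 to 7.74 and 4.37 FPKM. *Ncf4*, a subunit of the phagocyte oxidase, rose from 44.978 and 46.3 to 201 and 161 FPKM, whereas *Cyba*, another subunit, fell as above. *Arg1*, *Nos2* and *Il10* were not analysed here.

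Transcription factors of the myeloid lineages moved in both directions, 12 of 30 listed up and 8 down. The shares were 40% and 26.7%, against 13.6% and 21.0% of all listed genes. *Klf2*, a regulator of leukocyte quiescence, rose from 12.2 and 10.013 to 269 and 363 FPKM, *Nfe2* from 6.13 and 5.42 to 50.6 and 34.958 FPKM, and *Bcl6*, a repressor, from 4.74 and 4.12 to 29.6 and 21.6 FPKM. *Egr2*, induced in alternatively activated macrophages, fell from 53.1 and 52.2 to 0.569 and 0.912 FPKM, and *Mitf*, a regulator of lysosomal genes, from 11.1 and 10.3 to 2.12 and 1.9969 FPKM. *Spi1* (PU.1) and *Cebpb*, which act in both lineages, had changes of -0.91 and 0.077 and of -0.64 and 0.36, and neither was called on both scales. Among 31 listed JAK-STAT genes 9 rose and 5 fell (29.0% and 16.1%, against the same shares of all listed genes). *Cish*, an inhibitor induced by STAT5, fell from 47.6 and 44.4 to 0.629 and 0.458 FPKM, while *Il6ra*, the IL-6 receptor, rose from 7.90 and 7.86 to 45.6 and 41.2 FPKM. *Csf2rb*, the shared chain of the GM-CSF, IL-3 and IL-5 receptors, fell from 269.7 and 263 to 96.8 and 80.998 FPKM.

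Among sensors of microbes, 9 of 30 listed rose and 10 fell (30% and 33.3%, against 13.6% and 21.0% of all listed genes). The Toll-like receptors *Tlr1* and *Tlr6* rose by 1.59 and 2.44 and by 1.72 and 2.54, whereas *Tlr2*, with which both pair, fell with changes of -2.04 and -1.05. The lectins *Clec7a* (dectin-1) and *Clec4n* (dectin-2) fell from 1049.9 and 1073 to 179.8 and 188 FPKM and from 702 and 702 to 15.7 and 17.961 FPKM, and *Clec4e* (mincle) rose from 9.69 and 8.34 to 35.5 and 23.994 FPKM. Of 51 interferon-induced names 7 were listed. The membrane proteins *Ifitm3*, *Ifitm2* and *Ifitm1*, which block virus entry, rose, *Ifitm3* from 42.987 and 36.7 to 816 and 1095 FPKM, and *Bst2* and *Gbp6* fell, 1 of them without either WT sample. Of 7 listed immediate early genes, which respond within minutes to stimulation or handling, 5 rose, *Ier2* from 44.7 and 45.5 to 213 and 218 FPKM, and *Egr2* fell (2 fell without the second *Tnfr2*-/- sample). Of 41 listed actin cytoskeleton genes 9 rose and 12 fell (21.95% and 29.3%, against 13.6% and 21.0% of all listed genes), and *Coro1a*, a coronin of leukocytes, rose from 137 and 133 to 417 and 388 FPKM.

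**Figure D4:**
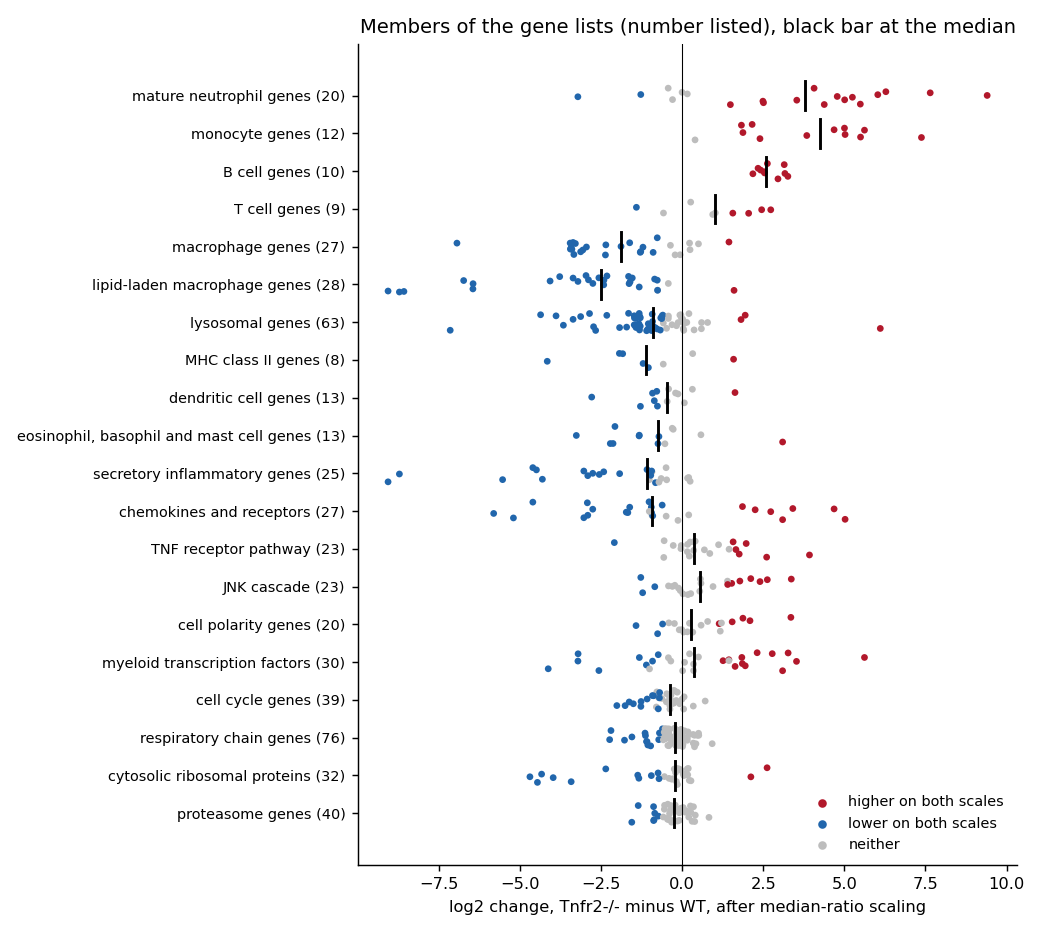
Log2 change, *Tnfr2*-/- minus WT, on the median-ratio scale, of each listed member of 20 gene lists (points, list and number of genes on the vertical axis, with vertical jitter), with a black bar at each list's median. Neutrophil, monocyte and B cell genes had medians of 3.80, 4.26 and 2.58, macrophage and lipid-laden macrophage genes of -1.88 and -2.49, and respiratory chain, ribosomal and proteasome genes of -0.20, -0.22 and -0.25.

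Genes that every cell uses were lower as deposited and nearer 0 after scaling, which centres the bulk of listed genes there by construction. Of 76 listed respiratory chain genes, 69 were called lower as deposited, 13 fell on both scales and none rose, with medians of -1.17 and -0.20. Of 40 proteasome genes 38 were called lower as deposited and 7 fell on both scales, and of 70 mitochondrial ribosomal genes 63 and 18. Of 55 chaperone genes 12 fell and 2 rose. The shares that fell were 17.1% of respiratory chain, 17.5% of proteasome, 25.7% of mitochondrial ribosomal and 21.8% of chaperone genes, near the 21.0% of all listed genes. The shares that rose were 0%, 0%, 4.29% and 3.64% in the same order, below the 13.6% of all listed genes. Of 150 zinc finger protein genes, many of them repressors of transcription, 26 rose and 10 fell (17.3% and 6.67%). The 32 cytosolic ribosomal protein genes were uneven, with changes from -4.69 to 2.62 after scaling, and 11 fell and 2 rose (1 rose without either WT sample). *Gapdh*, the glycolytic enzyme often used as a reference, was at 65.3 and 74.6 FPKM in WT and 2.96 and 2.33 FPKM in *Tnfr2*-/- MDSCs, while *Pgk1*, another enzyme of the pathway, was at 226 and 262 FPKM in WT and 109 and 89.6 FPKM in *Tnfr2*-/- MDSCs. Of 17 listed glycolysis genes 9 fell and 2, the glucose transporters *Slc2a3* and *Slc2a6*, rose.

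Some of these values depend on how reads shared between genes were counted. Of the 50-base stretches of the longest transcript, 27.2% occur in another annotated gene for *Gapdh*, whose change is uncertain, as are those of the ribosomal protein genes, which have many copies in the genome. The shared part was also above 20% for *Pgk1* (67.4%), *Gbp6* (59.5%), *Ifitm2* (49.2%), *Lilrb4a* (43.8%), *Ctsd* (36.5%), *Chil3* (30.2%), *Ccnd1* (27.3%), *Cdkn1c* (26.9%) and *Stfa1* (26.3%), whose changes are uncertain for the same reason. Among the 328 genes with more than 50% of stretches shared, 59 rose and 76 fell (17.99% and 23.2%), against 567 and 936 of the 4146 genes with none shared (13.7% and 22.6%). *Retnlg*, *Gpnmb*, *Marco* and *Aldoc* have no shared stretch, and *Spp1* has 9.59%. *Aldoc*, a glycolytic enzyme, fell from 58.7 and 60.9 to 0.507 and 0.863 FPKM.

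Some genes were listed at 0 in 1 genotype. In both WT samples 136 genes were at 0, of which 13 were at 1 FPKM or more in both *Tnfr2*-/- samples, and in both *Tnfr2*-/- samples 259 were at 0, of which 37 were at 1 FPKM or more in both WT samples. Among the genes called on both scales, 22 of those higher and 45 of those lower were such genes, and no fold change is given for them.

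The 2 *Tnfr2*-/- samples differed from each other by gene group. On log2 of scaled FPKM + 1, the second sample minus the first had a median of -0.022 over all listed genes. The 20 mature neutrophil genes had a median of -0.61, and 19 were lower in the second sample. Of the 8 MHC class II genes 7 were higher in the second sample, with a median of 0.55, and of the 10 B cell genes 8, with a median of 0.40. The first sample had the higher *Mmp9* and *Csf3r* and the second the higher *H2-Aa* and *Cd79a*, as their values above show. Of the 32 cytosolic ribosomal genes 29 were higher in the second sample, with a median of 0.47. With 1 sample on each side these differences have no test.

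The 2 knockouts share the WT samples, so a difference was taken as particular to *Tnfr2*-/- MDSCs only where the knockouts were compared with each other. Against WT, 2965 of the 8191 genes were called on both scales in *Tnfr1*-/- MDSCs, 1151 higher and 1814 lower, beside 2832 in *Tnfr2*-/- MDSCs. Between the knockouts 105 genes were called on both scales (1.28%), 55 higher and 50 lower in *Tnfr2*-/- MDSCs. This count was 0 when only the knockouts were in the model, where 1436 and 1311 genes had an unadjusted p under 0.05 on the 2 scales. It was 2 to 347 when 1 sample was left out, 347 without the first *Tnfr2*-/- sample and 2 to 3 without any other. A replicate block in the model left 7. The calls thus depended on these settings, and the words rose and fell are not used of them.

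Among the genes called, *Tnfrsf1b* was lower in *Tnfr2*-/- than in *Tnfr1*-/- MDSCs, with differences of -2.09 and -2.25 (limma adjusted p = 0.031 and 0.017, up to 0.157 and 0.136 over the alternatives that keep all samples). *Tnf* was at 30.4 and 25.9 FPKM in *Tnfr1*-/- and 15.7 and 15.6 FPKM in *Tnfr2*-/- MDSCs. *Il7r*, the IL-7 receptor, was at 26.5 and 40.4 FPKM in *Tnfr1*-/- and 7.74 and 4.69 FPKM in *Tnfr2*-/- MDSCs, and *Ccr7*, which guides cells to lymph nodes, at 14.975 and 16.009 FPKM in *Tnfr1*-/- and 7.04 and 7.78 FPKM in *Tnfr2*-/- MDSCs. As deposited, *Tnfr2*-/- MDSCs were the lowest of the 3 genotypes in these genes, but after scaling the *Tnf* mean was lower in WT, at 15.6 against 18.8. *Asprv1*, a protease gene on the neutrophil list, was at 151 and 149.7 FPKM in *Tnfr1*-/- and 67.1 and 57.7 FPKM in *Tnfr2*-/- MDSCs, both above WT at 2.98 and 2.84 FPKM.

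In the other direction, *Ccr2* was at 80.025 and 101 FPKM in *Tnfr1*-/- and 199 and 229 FPKM in *Tnfr2*-/- MDSCs, a difference of 1.24 and 1.09, and *F13a1* at 50.9 and 59.3 FPKM in *Tnfr1*-/- and 104 and 101 FPKM in *Tnfr2*-/- MDSCs. Both were higher in *Tnfr2*-/- MDSCs and lowest in WT. Of the lipid-laden macrophage genes 5 were higher in *Tnfr2*-/- than in *Tnfr1*-/- MDSCs and 1, *Abca1*, was lower. *Apoe*, the lipoprotein that carries lipid out of macrophages, was at 139.6 and 168 FPKM in *Tnfr1*-/- and 359 and 454 FPKM in *Tnfr2*-/- MDSCs, *Lpl* at 1.9973 and 1.36 FPKM in *Tnfr1*-/- and 6.81 and 5.59 FPKM in *Tnfr2*-/- MDSCs, and *Trem2* at 1.98 and 1.82 FPKM in *Tnfr1*-/- and 5.15 and 6.98 FPKM in *Tnfr2*-/- MDSCs, all below WT. *Cebpa*, a transcription factor of granulocyte and monocyte precursors, was at 109.6 and 115 FPKM in WT, 15.3 and 17.5 FPKM in *Tnfr1*-/- and 34.011 and 33.1 FPKM in *Tnfr2*-/- MDSCs. For *Retnlg*, *Csf3r*, *Spp1* and *Gpnmb*, whose promoters are shown above, no call was made between the knockouts.

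**Figure D5:**
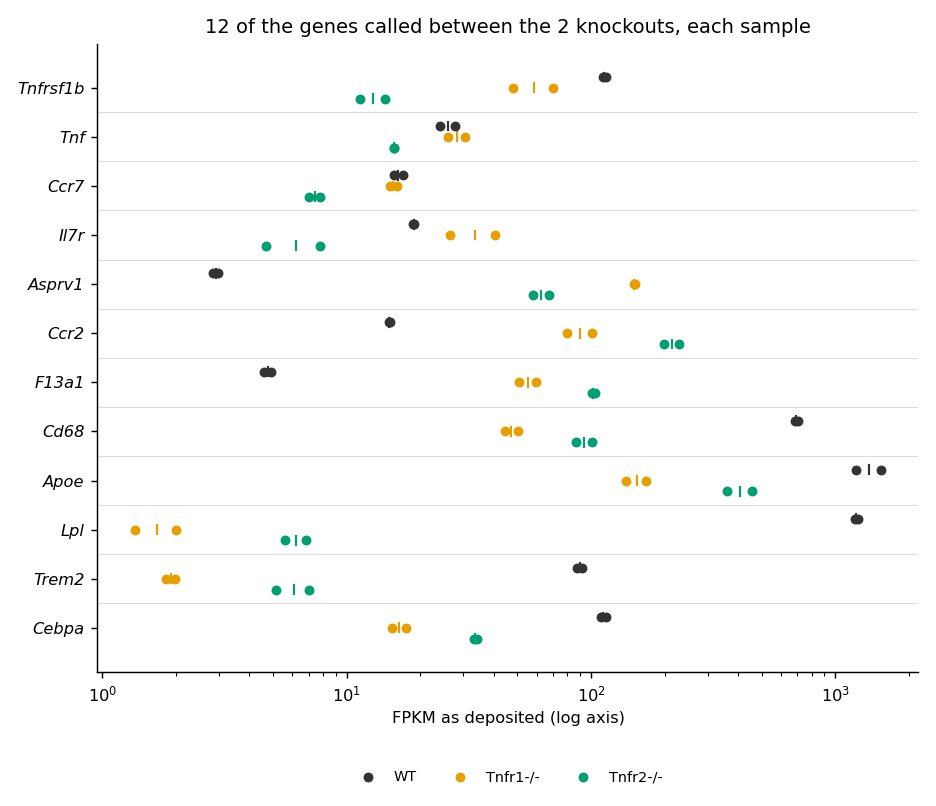
FPKM as deposited (horizontal, log axis) of 12 of the 105 genes called between the knockouts in each WT, *Tnfr1*-/- and *Tnfr2*-/- sample (points), with a tick at each group's mean. *Tnfrsf1b* was at 11.3 and 14.3 FPKM in *Tnfr2*-/- MDSCs and at 47.8 and 69.6 FPKM in *Tnfr1*-/- MDSCs, and *Ccr2* at 199 and 229 FPKM and 80.025 and 101 FPKM in the same order.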

How the data were processed

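MDSC RNA of 6 samples, 2 of each genotype, was sequenced by the authors with single-end reads of 50 bases and the submitters' processing notes name FastQC, edgeR and the build mm10. The aligner is not given in the sources used here. The authors deposited FPKM per gene and sample and a column of p-values from their analysis of variance between genotypes, which was not used. Recomputed from the FPKM, that p was under 0.05 for all 8191 genes. edgeR needs counts and was not run here. Depth is unknown, so no counting error is given.

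FPKM + 1 was taken to log2, as deposited and after median-ratio scaling, and fitted with limma 3.58.1 (R 4.3.3, eBayes with trend) in 1 model of all 6 samples, without a filter on low values. The model was first run on simulated data with few changed genes and no selection of genes by a test. That run cannot show how the model behaves on this table, where every gene had been picked for a difference. Genes named in the text are the targeted gene, the 12 largest rises and 12 largest falls at 10 FPKM or more called on both scales, up to 2 rises and 2 falls per list, and a fixed list of anchor genes. Other genes were named after their values were seen. The members and lists were chosen with earlier results of these data known. Gene positions came from GENCODE M21 (GRCm38), in which 8166 symbols were found. Samples with the same number did not deviate together (correlations of 0.0232 to 0.0461), so the model has no block. Alternatives were another pseudocount, filter, scaling, fold threshold, adjustment and set of samples. Python 3.11.15 and matplotlib 3.10.9 were used for the rest.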

Additional observations from a re-analysis of the deposited data

How the results depend on the processing

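Of the counts against WT, only those under a fold change over 2 left the range of 1.5 times the reported ones, at 3686 as deposited and 1730 on both scales. Leaving out 1 sample in turn gave 5469 to 5865 calls as deposited, 3150 to 3755 after median-ratio scaling and 2484 to 2946 on both scales. *Tnfrsf1b* stayed lower and called against WT in every alternative run. Size factors over genes of at least 5 FPKM gave 1580 genes higher and 2145 lower (42.4% higher against 51.0%). With the replicate number as a block the counts were 5787, 3505 and 2832, and the numbers did not pair the samples.

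Against *Tnfr1*-/- MDSCs the 105 calls became 187 among genes with a mean of at least 1 FPKM, 0 with only the knockouts in the model, 7 with the replicate block, 14 without the trend, 7 adjusted as for 25000 genes and 2 to 347 when 1 sample was left out. These alternatives were chosen after seeing the data, and the cause was not tested. With 1 sample left out its group keeps 1 sample, assumed to vary like the others. Among genes called on neither or 1 scale, signs turned for *Spi1* (-0.13 with size factors over at least 5 FPKM, and -0.074 to 0.25 with 1 sample left out, after scaling), *Cd3g* (-0.060 to 0.44 with 1 sample left out, as deposited) and *Rrm2* (-0.40 to 0.27, after scaling). Quantile normalization sets *Lyz2*, the highest listed value in every sample, to a change of 0 by construction. Depth is unknown, so the floor for genes listed at 0 is too.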
